A study of Mus musculus with 90 samples.

Results

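The cytochrome P450 gene Cyp2f2 and 9 genes that lie near it on mouse chromosome 7 were described in whole lung: Mia, Rab4b, Egln2, Snrpa and Itpkc on one side of Cyp2f2, and Cyp2a5, Cyp2g1, Cyp2b10 and Cyp2s1 on the other. The genes were listed by symbol, and a probe set counted for a gene when the platform annotation gave it that symbol alone. Of the 10 genes, 9 had such a probe set, 12 probe sets in all, among 17097 genes measured. Cyp2s1 is not analysed here. Itpkc had 2 probe sets and Cyp2b10 had 3, and each gene was tested on its brightest probe set, the one with the highest mean over all 90 arrays.

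The lungs came from 90 adult male C57Bl/6 mice of 3 strains, with 5 mice in each of 18 groups. TG mice carried the CYP2F2(-/-) deletion together with a transgene given in the labels as 2F1,2A13,2B6 (the series text spells the second gene SA13), KO mice carried the CYP2F2(-/-) deletion alone, and WT mice carried neither. Mice of every strain inhaled either air alone (0 ppm) or air with styrene (40 or 120 ppm) for 6 hours a day on 5 days a week, for 1 or for 4 weeks, and were sampled the morning after exposure ended. The promoter that drives the transgene, the number of transgenic or knockout lines, the part of Cyp2f2 that was removed and the place of the array's probes relative to it are not stated in the labels or the table.

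Cyp2f2 encodes the P450 of mouse club cells, the secretory cells of the small airways, and is known for oxidising small aromatic compounds such as styrene and naphthalene to reactive products. Its human counterpart is CYP2F1. It sits in a cluster of Cyp2 genes in which Cyp2a5 encodes the mouse coumarin hydroxylase, which also oxidises nicotine, Cyp2b10 is the best known target of the nuclear receptor CAR, and Cyp2g1 encodes an enzyme of the olfactory mucosa. The neighbours on the other side have unrelated roles: Mia encodes a small secreted protein first known from melanoma and cartilage, Rab4b a GTPase of endosome recycling, Egln2 a prolyl hydroxylase that acts on hypoxia-inducible factors, Snrpa a protein of the U1 particle of the spliceosome and Itpkc a kinase of inositol trisphosphate.

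In the RefSeq gene order of assembly GRCm38.p6, Egln2 was the second gene after Cyp2f2, followed by Rab4b 3, Mia 5, Snrpa 6 and Itpkc 9 places away. On the other side Cyp2a5 lay 9 places from Cyp2f2, Cyp2g1 10, Cyp2b10 33 and Cyp2s1 38. RefSeq promoter windows of 300 bases, 250 before the gene's start and 50 after it, were found for 9 of the 10 genes. Those of the 4 genes that differed between strains are printed here 5′ to 3′ on the gene's own strand, at chr7:27119705-27120004 (plus strand) for Cyp2f2, chr7:27181100-27181399 (minus) for Mia, chr7:27178834-27179133 (minus) for Rab4b and chr7:26835089-26835388 (plus) for Cyp2a5. Capitals mark matches on either strand. The letters searched were TATAAA for the TATA box and GGGCGG for the GC box. For the FOXA transcription factors they were TGTTTAC and for the lung factor NKX2-1 they were CTCAAG. The nuclear receptor half-site was searched as AGGTCA.
Cyp2f2: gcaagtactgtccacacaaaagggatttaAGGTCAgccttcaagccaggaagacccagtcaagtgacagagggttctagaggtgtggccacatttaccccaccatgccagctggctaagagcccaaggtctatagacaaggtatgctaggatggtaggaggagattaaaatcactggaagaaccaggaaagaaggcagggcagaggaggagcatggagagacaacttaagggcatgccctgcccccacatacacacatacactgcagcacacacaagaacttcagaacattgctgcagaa
Mia: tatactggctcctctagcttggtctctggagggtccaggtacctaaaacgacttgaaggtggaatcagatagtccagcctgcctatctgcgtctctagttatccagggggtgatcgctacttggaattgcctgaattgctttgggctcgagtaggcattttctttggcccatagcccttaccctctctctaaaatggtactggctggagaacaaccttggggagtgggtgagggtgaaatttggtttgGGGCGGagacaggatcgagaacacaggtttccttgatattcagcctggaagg
Rab4b: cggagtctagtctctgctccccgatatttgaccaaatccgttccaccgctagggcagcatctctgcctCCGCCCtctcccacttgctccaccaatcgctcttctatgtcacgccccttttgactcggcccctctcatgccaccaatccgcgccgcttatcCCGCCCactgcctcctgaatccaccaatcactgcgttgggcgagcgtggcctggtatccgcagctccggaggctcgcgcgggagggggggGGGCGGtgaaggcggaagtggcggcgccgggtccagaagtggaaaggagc
Cyp2a5: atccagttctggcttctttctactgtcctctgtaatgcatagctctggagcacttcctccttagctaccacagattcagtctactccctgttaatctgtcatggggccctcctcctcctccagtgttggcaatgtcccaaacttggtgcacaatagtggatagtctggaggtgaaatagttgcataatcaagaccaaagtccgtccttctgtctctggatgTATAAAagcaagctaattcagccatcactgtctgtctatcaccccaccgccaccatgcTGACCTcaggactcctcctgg

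The 4 windows shared no motif that all of them held. Rab4b had 3 GC boxes and Mia had 1, a motif found in 35.7% of 32851 mouse promoter windows of the same length. Cyp2a5 alone among the 4 had a TATA box, at position -29 from its start, a motif found in 13.6% of windows. Cyp2f2 and Cyp2a5 each had 1 nuclear receptor half-site, at positions -221 and 30 from the start, against 16.3% of windows with at least 1. None of the 4 held the FOXA or the NKX2-1 letters, which 3.65% and 15.9% of windows hold. No match overlapped another, and a match of letters is a description only.

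The values are log2 expression from the authors' table, so a difference of 1 is a 2-fold change. Each array's median lay between 4.42 and 4.86, and the highest value in the table was 14.01. Of the 90 arrays, 4 had limma array weights under a cut-off of 0.25: TG 1 week 0 ppm animal 5, KO 1 week 0 ppm animal 3, KO 4 weeks 40 ppm animal 1 and WT 1 week 120 ppm animal 3. The next lowest weight was 0.251, in TG 1 week 120 ppm animal 1, so the cut-off marks no gap. Values without the 4 arrays are given for Cyp2f2, Mia, Rab4b, Egln2 and Cyp2b10. Genes of alveolar type II cells (4 measured, gene means 11.37 to 13.83) and club cell genes (8 measured, 8.31 to 13.77) were bright. Over the 90 arrays 6 hepatocyte genes had means of 2.45 to 4.20, under every array's median. Averaged in each animal, these 6 reached 5.52 in KO at 4 weeks and 40 ppm, above every array's median. The median of that group was 3.25. In KO at 1 week and 40 ppm the highest animal was at 3.88. The part of this signal in the results was not tested. The labels name 5 biological replicates a group, so the error is the spread between mice.

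Cyp2f2 (probe set 1448792_PM_a_at) was among the brightest signals on the arrays in WT lungs and was 2.62-fold lower in TG and 2.65-fold lower in KO lungs. Mia fell in both strains as well, 1.75-fold and 1.73-fold, and no other of the 9 genes passed the test between unexposed strains. Over all doses and weeks Cyp2a5 and Rab4b were also lower in both strains, where 16.9% of all genes were called in TG and 13.7% in KO. The KO call of Rab4b lay at the threshold (limma adjusted p = 0.049), and Rab4b was not called at 0 ppm. With styrene Cyp2f2 itself was lower in WT lungs at 1 week, and no gene of the 9 passed the test in TG or KO lungs.

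At 1 week and 0 ppm, Cyp2f2 read 11.94, 11.63, 11.98, 11.98 and 12.05 in TG lungs. KO lungs read 11.91, 11.70, 12.07, 11.53 and 11.97, and WT lungs 13.33, 13.24, 13.29, 13.23 and 13.23. Every TG and KO animal lay under every WT animal, while TG and KO animals overlapped. At 4 weeks and 0 ppm the values were 11.68, 11.81, 11.80, 11.93 and 11.99 in TG lungs, 11.90, 11.91, 11.77, 12.03 and 11.83 in KO lungs, and 13.27, 13.26, 13.21, 13.25 and 13.39 in WT lungs. The same separation held at both weeks.

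Over both weeks, unexposed Cyp2f2 averaged 11.88 ± 0.14 in TG lungs, 11.86 ± 0.16 in KO lungs and 13.27 ± 0.05 in WT lungs (SD, n = 10 each). The KO minus WT difference was -1.41 (SE 0.06; limma adjusted p = 7.43e-31), 2.65-fold lower, and TG minus WT was -1.39 (SE 0.06; limma adjusted p = 1.61e-30), 2.62-fold lower. Among 17097 genes these differences ranked 4 from the lowest in KO minus WT and 5 from the lowest in TG minus WT. The origin of the signal left in KO and TG lungs was not tested, since the position of the probes relative to the deletion is not given.

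Across all 18 groups the order of Cyp2f2 levels put the 6 WT groups first and the 12 KO and TG groups after them. The highest mean was 13.27 in WT at 4 weeks and 0 ppm, and the lowest was 11.81 in TG at 1 week and 120 ppm. Of the 17 pairs of neighbours in that order, only 1 did not overlap, WT 1 week 40 ppm (12.93 ± 0.09) and KO 4 weeks 40 ppm (12.09 ± 0.14). All 30 TG animals (highest 12.13) and all 30 KO animals (highest 12.28) lay under the lowest WT animal, 12.73.

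TG and KO lungs were not shown to differ in Cyp2f2. TG minus KO was 0.02 at 0 ppm (SE 0.06; 95% interval -0.11 to 0.14) and -0.05 over all doses and weeks (SE 0.04; interval -0.12 to 0.02; limma adjusted p = 0.486). The comparisons of TG and of KO with WT share the same WT mice and so are not independent of each other.

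**Figure D1:**
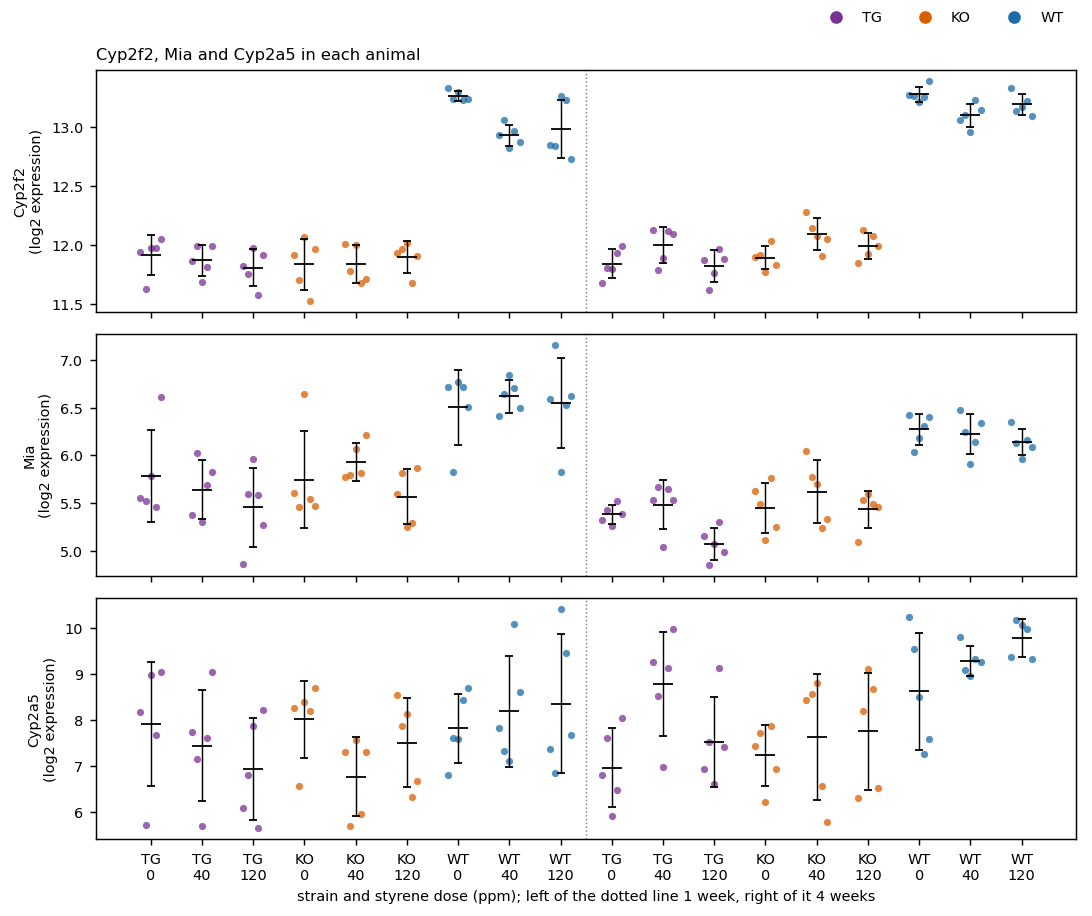
Log2 expression of Cyp2f2, Mia and Cyp2a5 in each of 90 animals (points; vertical axes), by strain and styrene dose at 1 week and at 4 weeks (horizontal axis); black bars are the mean and SD of 5 animals. Every WT point for Cyp2f2 lies above 12.7 and every TG and KO point under 12.3, Mia is lower in TG and KO with some overlap, and Cyp2a5 spreads over several log2 units within most groups.

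Mia (probe set 1419608_PM_a_at) gave a dimmer signal. At 1 week and 0 ppm it read 5.55, 5.52, 5.78, 5.45 and 6.61 in TG lungs. KO lungs read 5.60, 5.45, 6.65, 5.54 and 5.47, and WT lungs 6.72, 5.82, 6.77, 6.72 and 6.51. In each group 1 animal stood away from the others, TG animal 5 and KO animal 3 high and WT animal 2 low, so the groups overlapped at this time. At 4 weeks and 0 ppm Mia read 5.32, 5.42, 5.26, 5.52 and 5.39 in TG lungs, 5.63, 5.49, 5.12, 5.76 and 5.25 in KO lungs, and 6.43, 6.04, 6.19, 6.31 and 6.40 in WT lungs. Here no TG or KO animal reached the lowest WT animal.

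Over both weeks, unexposed Mia averaged 5.58 ± 0.39 in TG lungs, 5.60 ± 0.41 in KO lungs and 6.39 ± 0.31 in WT lungs (SD, n = 10 each). KO minus WT was -0.79 (SE 0.13; limma adjusted p = 9.71e-05), 1.73-fold lower, and TG minus WT was -0.81 (SE 0.13; limma adjusted p = 6.63e-05), 1.75-fold lower. Without the 4 arrays of low weight, which include TG animal 5 and KO animal 3 at 1 week, the differences were -0.91 in KO and -0.91 in TG. TG minus KO was -0.01 (SE 0.13; interval -0.28 to 0.26).

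Mia and Cyp2f2 were thus 2 of the 9 genes lower in KO than in WT lungs at 0 ppm, where 0.275% of all genes were called at an adjusted p below 0.05. The same 2 were lower in TG than in WT lungs, where 0.287% of all genes were called. In TG against KO lungs, 0 of 9 were called by limma, and 0 of 9 had an unadjusted p below 0.05, where 0.135% of all genes were called. The median difference over the 9 genes was 0.04 in KO minus WT and -0.06 in TG minus WT, beside 0.02 and 0.00 over all genes.

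The decrease of Mia was present at every dose. Its mean was lower in TG than in WT lungs in 6 of 6 pairs of the same week and dose, with log2 differences of -1.09 to -0.72. It was lower in KO than in WT lungs in 6 of 6 pairs as well, with differences of -0.98 to -0.61. The groups did not overlap in 4 of the 6 TG pairs and 3 of the 6 KO pairs. Over all doses and weeks KO minus WT was -0.76 (SE 0.08; limma adjusted p = 3.35e-12) and TG minus WT was -0.91 (SE 0.08; limma adjusted p = 7.74e-16). Of the 30 animals of each strain, 27 TG and 25 KO animals lay under every WT animal.

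Mia's levels ran from 6.62 ± 0.17 in WT at 1 week and 40 ppm down to 5.07 ± 0.17 in TG at 4 weeks and 120 ppm (SD, n = 5 each), a span of 2.92-fold. All 6 WT means were above all 12 TG and KO means, though every pair of neighbours in that order overlapped. Of the relatives of Mia, 3 were measured, Mia2, Mia3 and Otor. At 0 ppm 0 of 3 differed between KO or TG and WT lungs, where 0.275% and 0.287% of all genes were called. Over all doses 1 of 3 was higher in KO, where 13.7% of all genes were called. It was Mia2, by 0.10 at a mean level of 2.60, under every array's median.

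Cartilage is a known source of Mia. Of 6 genes of cartilage and airway smooth muscle, 0 were called in either strain at 0 ppm, and the cartilage genes Col2a1 (mean level 2.85), Matn1 (2.57) and Acan (2.94) lay under every array's median. Over all doses 2 were higher in TG, where 16.9% of all genes were called, and 3 in KO, where 13.7% were called. Among them were Chad, a cartilage matrix protein (0.45 higher in KO; SE 0.12; limma adjusted p = 0.00767), and the muscle myosin Myh11 (0.37 higher in TG, SE 0.08, and 0.34 higher in KO, SE 0.08). In whole lung, fewer cells of a type and less RNA per cell cannot be told apart.

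Rab4b (probe set 1451643_PM_a_at) lies between Egln2 and Mia. Its level in unexposed lungs was 6.97 ± 0.22 in TG, 7.01 ± 0.19 in KO and 7.01 ± 0.15 in WT (SD, n = 10 each), and the groups overlapped. The difference was -0.04 in TG minus WT (interval -0.22 to 0.14) and 0.01 in KO minus WT (interval -0.17 to 0.18). Over all doses and weeks Rab4b averaged 6.99 ± 0.20 in TG, 7.04 ± 0.20 in KO and 7.19 ± 0.24 in WT lungs (SD, n = 30 each). TG minus WT was then -0.20 (SE 0.05; limma adjusted p = 0.00311) and KO minus WT was -0.14 (SE 0.05; limma adjusted p = 0.049), and none of the KO animals lay under every WT animal. The KO call lay at the threshold and held in 18 of the 60 fits that left out 1 animal. It was lost with the median over probe sets (limma adjusted p = 0.0506), the compared arrays alone (limma adjusted p = 0.0522), an intensity trend (limma adjusted p = 0.0512) and the club cell list as covariate (limma adjusted p = 0.0722). Without the 4 arrays of low weight the difference was -0.20 (limma adjusted p = 0.000558).

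At 1 week WT lungs at 40 ppm read 7.39, 7.44, 7.68, 7.43 and 7.12 for Rab4b, against 7.30, 6.84, 7.12, 6.95 and 6.97 at 0 ppm. At 40 ppm 4 of the 5 animals were above every unexposed one, and the difference of 0.38 (SE 0.13) had a limma adjusted p of 0.0728. At 120 ppm WT lungs read 7.46, 7.68, 6.85, 7.08 and 7.53, a difference of 0.28 (SE 0.13; limma adjusted p = 0.18). Animal 3 of that group, the lowest of the 5, was one of the arrays of low weight. Without those arrays the differences were 0.38 (limma adjusted p = 0.0133) and 0.40 (limma adjusted p = 0.00736). At 4 weeks WT lungs differed from 0 ppm by 0.23 at 40 ppm and 0.20 at 120 ppm (SE 0.13 each), and in TG and KO lungs the changes of Rab4b lay between -0.09 and 0.15. None of these was called.

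Of 11 measured genes of early endosome recycling, 0 differed between strains at 0 ppm. Over all doses 3 were lower in TG than in WT lungs and 0 were called in KO, where 16.9% and 13.7% of all genes were called. They were Rab4a, the closest relative of Rab4b (-0.53, SE 0.08; limma adjusted p = 2.29e-07), the effectors Rabep2 (-0.21, SE 0.06) and Rufy1 (-0.12, SE 0.03). The same 3 were lower in TG than in KO lungs, where 2.33% of all genes were called, with a difference of -0.53 for Rab4a (limma adjusted p = 1.96e-06).

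Over all doses and weeks, 4 of the 9 genes, Cyp2f2, Mia, Rab4b and Cyp2a5, were lower in KO than in WT lungs, where 13.7% of all genes were called. The same 4 were lower in TG than in WT lungs, where 16.9% were called. Between TG and KO lungs 0 of 9 were called by limma and 2 had an unadjusted p below 0.05, Snrpa (-0.13) and Egln2 (-0.12), where 2.33% of all genes were called. Medians over the 9 genes were -0.11 in TG minus WT and -0.04 in KO minus WT, beside -0.01 and 0.01 over all genes.

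Cyp2a5 (probe set 1422230_PM_s_at) was the most variable of the 9 genes. Its SD between animals of one group was 1.05, the 17th highest of 17097 genes, where the median gene had 0.185. The suffix of the probe set marks probes that may match several related transcripts, so its signal is uncertain with respect to the close Cyp2a paralogues. At 1 week and 0 ppm it read 8.17, 5.73, 8.98, 7.67 and 9.03 in TG lungs, 8.25, 6.57, 8.39, 8.21 and 8.69 in KO lungs, and 6.82, 7.60, 7.58, 8.43 and 8.69 in WT lungs. The strains overlapped widely at this time.

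At 4 weeks and 0 ppm Cyp2a5 read 6.81, 7.60, 5.92, 6.48 and 8.04 in TG lungs, 7.43, 7.71, 6.23, 7.88 and 6.95 in KO lungs, and 10.24, 9.55, 8.50, 7.26 and 7.58 in WT lungs. At 4 weeks and 120 ppm it read 6.95, 7.52, 6.61, 9.14 and 7.42 in TG lungs, 6.31, 8.19, 9.10, 8.68 and 6.53 in KO lungs, and 9.36, 10.18, 10.06, 9.97 and 9.33 in WT lungs. In the exposed group every TG and KO animal lay under every WT animal, whereas at 0 ppm the strains overlapped. At 4 weeks and 40 ppm KO lungs (5.80 to 8.81) were again apart from WT lungs (8.95 to 9.80), while TG lungs (6.99 to 9.98) were not.

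Over all doses and weeks Cyp2a5 averaged 7.60 ± 1.20 in TG, 7.49 ± 1.02 in KO and 8.68 ± 1.14 in WT lungs (SD, n = 30 each). KO minus WT was -1.19 (SE 0.26; limma adjusted p = 0.000753), 2.27-fold lower, and TG minus WT was -1.08 (SE 0.26; limma adjusted p = 0.00185), 2.12-fold lower. At 0 ppm alone the differences were -0.59 in KO (SE 0.46; limma adjusted p = 0.869) and -0.78 in TG (SE 0.46; limma adjusted p = 0.621), and neither was called. The lowest mean of the 18 groups was 6.77 ± 0.86 in KO at 1 week and 40 ppm and the highest was 9.78 ± 0.40 in WT at 4 weeks and 120 ppm, a span of 8.05-fold, though no pair of neighbours in the order was apart.

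The level of Cyp2a5 moved from animal to animal with the average of a list of club cell genes. Its relation to each gene of the list was not tested. Of 9 listed club cell genes 8 were measured (Scgb1a1, Scgb3a1, Scgb3a2, Cbr2, Cckar, Muc5b, Reg3g and Aldh1a7), and their values were averaged in each animal. After each group's mean was taken off, Cyp2a5 and this average had a Pearson r of 0.88 and a Spearman rho of 0.90 over 90 animals. Each had a permutation p of 1e-05, the smallest that 100000 permutations within groups can give, and adjusted values over 18 relations of 4.5e-05 and 9e-05. Without the 2 animals farthest from the median of the list r was 0.88, and within strains it was 0.85 in TG, 0.90 in KO and 0.90 in WT. Cyp2f2 had an r of 0.56 and a rho of 0.55 with the same list (permutation p = 1e-05 each), with an r of 0.54 without the 2 farthest animals, and for Cyp2b10 r was 0.02. For Mia rho was 0.31 (permutation p = 0.00887, adjusted 0.02) and r was 0.20 (permutation p = 0.12, adjusted 0.18). The r of Mia was 0.02 at 1 week and 0.61 at 4 weeks.

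The club cell list itself averaged 11.18 in TG (range 9.96 to 11.84), 11.34 in KO (10.47 to 11.86) and 11.21 in WT lungs (10.23 to 11.92; n = 30 each). Of its 8 genes Aldh1a7 was lower at 0 ppm in TG (-0.25) and in KO (-0.32). Over all doses Aldh1a7 was again lower in TG (-0.17) and in KO (-0.16), and Scgb1a1 (0.07) and Scgb3a1 (0.62) were higher in KO. With the list's average as a covariate, a fit chosen after the data were seen, Cyp2a5 was lower than in WT at 0 ppm by -1.21 in KO (SE 0.22; limma adjusted p = 0.000308) and -1.16 in TG (SE 0.22; limma adjusted p = 0.000607). Over all doses the same fit gave -1.48 in KO (SE 0.13) and -1.01 in TG (SE 0.12), and TG then lay 0.47 above KO (SE 0.13; limma adjusted p = 0.0225). Without the covariate TG lay 0.10 above KO (SE 0.26; limma adjusted p = 0.86). The list's average was itself lower in TG than in KO, so the strain differences of this fit depend on the list.

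**Figure D2:**
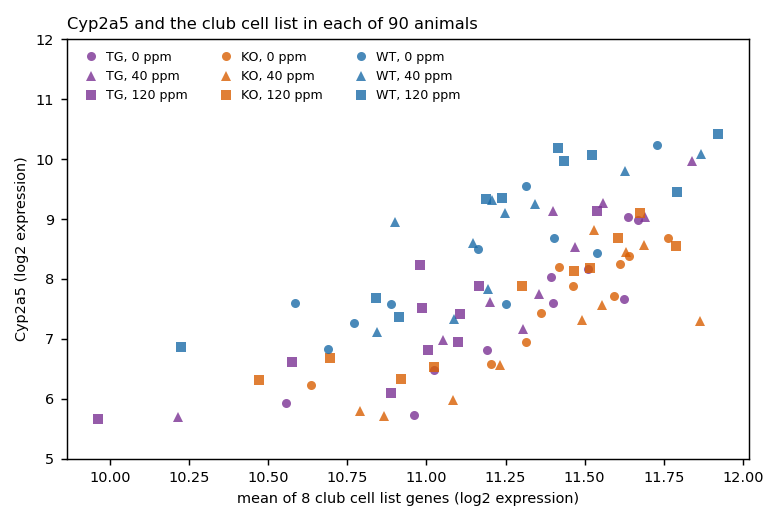
Log2 expression of Cyp2a5 (vertical axis) against the mean log2 expression of 8 club cell genes (horizontal axis) in each of 90 animals, coloured by strain and shaped by styrene dose. Points of all strains rise together, and at a given level of the list most WT points lie above those of TG and KO.

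Cyp2b10 (brightest probe set 1425645_PM_s_at) was bright in every group and differed little. The suffix is the one described for Cyp2a5, so this signal is uncertain with respect to the close Cyp2b paralogues. The 18 group means of Cyp2b10 ran from 11.11 in TG at 1 week and 40 ppm to 11.43 in WT at 4 weeks and 40 ppm, a span of 1.24-fold, with no neighbours apart. At 0 ppm it averaged 11.22 ± 0.17 in TG, 11.25 ± 0.22 in KO and 11.17 ± 0.19 in WT lungs (SD, n = 10 each). TG minus WT was 0.05 (interval -0.10 to 0.20) and KO minus WT was 0.08 (interval -0.07 to 0.22).

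Cyp2b10 in WT lungs at 4 weeks read 11.20, 11.40, 11.49, 11.65 and 11.39 at 40 ppm, and 11.27, 11.43, 11.31, 11.53 and 11.51 at 120 ppm, against 10.86, 11.07, 11.14, 11.36 and 11.36 at 0 ppm. At 40 ppm 4 animals and at 120 ppm 3 animals were above every unexposed one, and the others overlapped. Animal 1 was the lowest in each of these groups. Every exposed animal was above the unexposed animal of its number, though the labels do not pair them. The differences from 0 ppm were 0.27 (SE 0.11; limma adjusted p = 0.782) and 0.25 (SE 0.11; limma adjusted p = 0.654). They were not called, with the replicate block or without it. The other 2 probe sets, 1422257_PM_s_at and 1451787_PM_at, gave 0.32 and 0.35 at 40 ppm and 0.31 and 0.36 at 120 ppm. Of 15 measured genes known as CAR targets, Cyp2b10 included, 0 were called in either week of either dose in WT lungs, where 4.67% and 6.79% of all genes were called at 40 and 120 ppm at 1 week and 0.152% and 0.439% at 4 weeks.

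Over all doses, 4 of the 15 CAR target genes were lower in TG than in WT lungs, and in KO 3 were lower and 1 was higher, where 16.9% and 13.7% of all genes were called. The export pump Abcc3 (-0.38 in TG, SE 0.06, and -0.33 in KO, SE 0.06), the haem synthesis enzyme Alas1 (-0.26 and -0.16, SE 0.05 each) and the glutathione transferase Gstm1 (-0.15 in each strain) were lower in both. Cyp2b10 itself differed by -0.11 in TG (SE 0.04; limma adjusted p = 0.0708) and -0.04 in KO (SE 0.04; limma adjusted p = 0.582). The TG difference passed the threshold without the arrays of low weight (limma adjusted p = 0.0414), with array weights (limma adjusted p = 0.0459), with the replicate block (limma adjusted p = 0.0136) and in 5 of 60 fits that left out 1 animal. In the 4-week 120 ppm groups every TG animal was under every WT animal for Cyp2b10, with a difference of -0.29.

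Cyp2g1 (probe set 1449565_PM_at) was not above the level of genes that lung does not use. Its mean over all arrays was 2.70, in a range of 2.38 to 3.09 over the 90 animals, under the lowest array median, and 9 genes not expected in lung had means of 2.36 to 3.90. It was called in no comparison. Of the 4 measured genes of the olfactory mucosa, where Cyp2g1 is known to be made, only Gnal had a mean above the array medians, 8.32.

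Egln2 (1416533_PM_at), Snrpa (1417274_PM_at) and Itpkc (1454755_PM_at), which flank Rab4b and Mia, had narrow spans across the study. The spans of their 18 group means were 1.17-fold, 1.24-fold and 1.22-fold. At 0 ppm Egln2 averaged 8.76 ± 0.14 in TG, 8.77 ± 0.15 in KO and 8.73 ± 0.11 in WT lungs, and Snrpa 8.23 ± 0.13, 8.35 ± 0.18 and 8.29 ± 0.11 in the same strains (SD, n = 10 each). Itpkc averaged 6.44 ± 0.16 in TG, 6.45 ± 0.29 in KO and 6.36 ± 0.17 in WT lungs, and its dimmer probe set 1440024_PM_at averaged 4.58, 4.55 and 4.61. The 95% intervals of the unexposed differences were -0.11 to 0.17 in TG and -0.09 to 0.19 in KO for Egln2, and -0.21 to 0.09 in TG and -0.10 to 0.20 in KO for Snrpa. For Itpkc they were -0.13 to 0.29 in TG and -0.12 to 0.30 in KO. Over all doses Egln2 differed by -0.09 in TG minus WT (SE 0.04; limma adjusted p = 0.148). That difference was -0.12 and was called without the arrays of low weight (limma adjusted p = 0.00422), and it was called with array weights as well (-0.10; limma adjusted p = 0.00713).

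**Figure D3:**
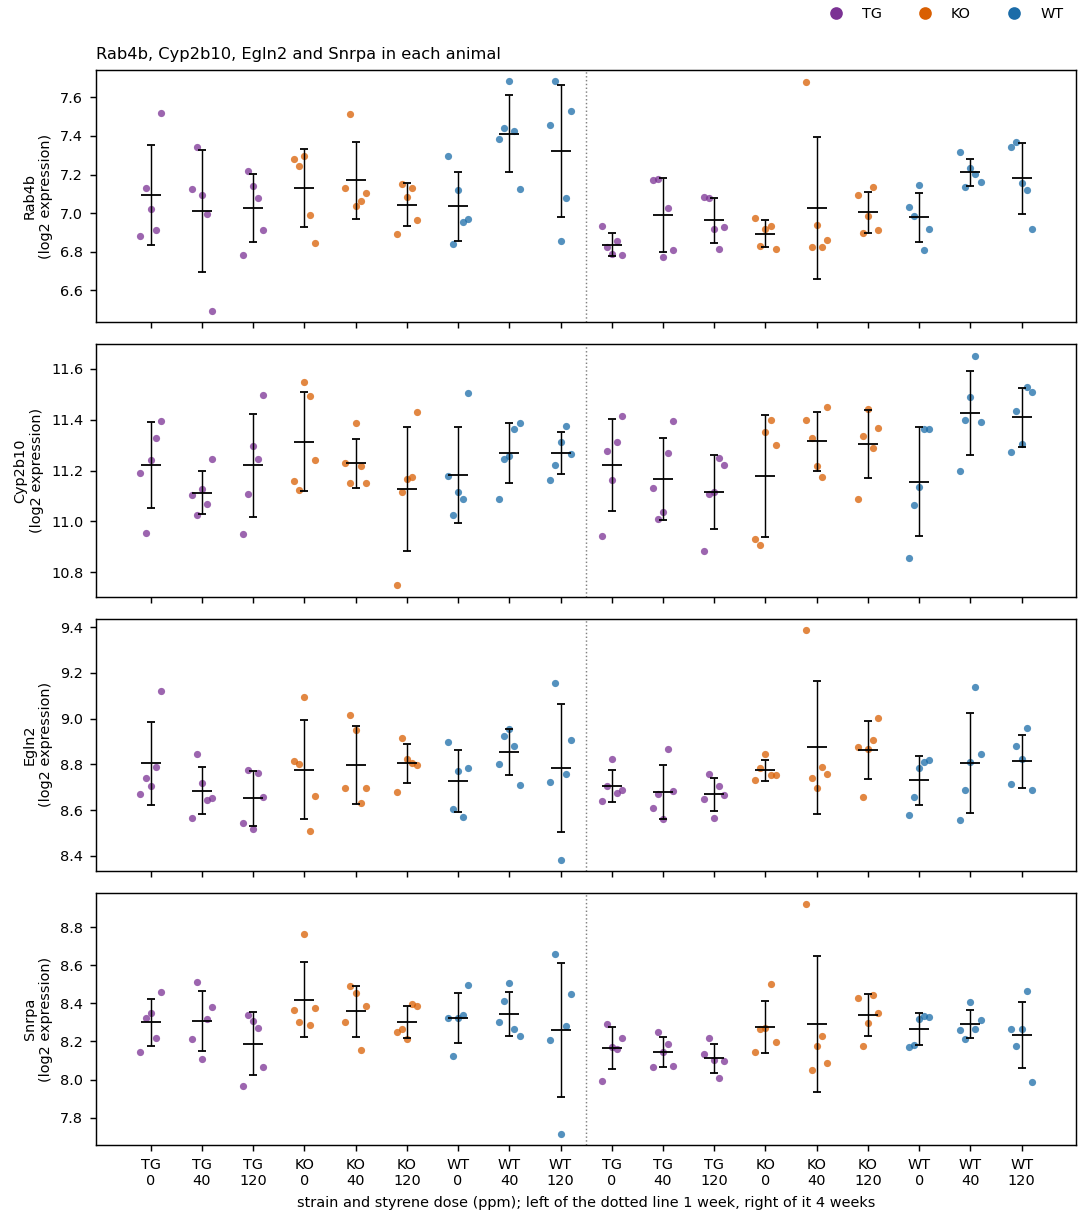
Log2 expression of Rab4b, Cyp2b10, Egln2 and Snrpa in each of 90 animals (points), by strain and styrene dose at 1 and 4 weeks; black bars are the mean and SD of 5 animals. At the same week and dose the strains overlap for these 4 genes, except that every TG point for Cyp2b10 lies under every WT point at 4 weeks and 120 ppm. KO 4 weeks 40 ppm animal 1 is the highest animal of its group for Rab4b (7.68), Egln2 (9.39) and Snrpa (8.92).

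Within groups, Mia, Rab4b, Egln2, Snrpa and Itpkc moved with the mean of 9 genes not expected in lung. Pearson r over 90 animals was 0.53, 0.59, 0.50, 0.54 and 0.50 in that order (Spearman 0.40, 0.51, 0.37, 0.39 and 0.36). Permutation p-values were at most 0.00044 for r and 0.00275 for rho, and at most 0.00113 and 0.00707 after adjustment over 18 relations. Without the 2 farthest animals the r values lay between 0.35 and 0.51. Within strains the r of Itpkc was 0.53 in TG, 0.72 in KO and 0.04 in WT lungs, so it did not hold in WT. For Cyp2b10 r was 0.32 (permutation p = 0.00435, adjusted 0.00979) and rho 0.27 (permutation p = 0.0244, adjusted 0.0488). For Cyp2f2 r was 0.01 and for Cyp2a5 it was 0.02. The mean of the list was 3.18 in TG, 3.19 in KO and 3.17 in WT lungs (n = 30 each). What this mean measures, and its part in the results, were not tested.

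The hypoxia pathway of Egln2 was measured in 19 genes, and 0 differed between strains at 0 ppm. Over all doses 3 were higher and 2 lower in TG, and 6 higher and 1 lower in KO, where 16.9% and 13.7% of all genes were called. The paralogue Egln1 was higher in both (0.09 in TG and 0.11 in KO, SE 0.03 each) and the target gene Ndrg1 likewise (0.18 and 0.27, SE 0.07 each), while the glucose transporter Slc2a1 was lower in TG (-0.40, SE 0.06; limma adjusted p = 6.85e-08). In WT lungs at 1 week the vasodilator peptide gene Adm, a known hypoxia target, fell at 40 ppm by 1.49 (SE 0.28; limma adjusted p = 0.000164) and at 120 ppm by 1.79 (SE 0.28; limma adjusted p = 3.58e-06) on the log2 scale. Egln2 itself changed by 0.13 and 0.06 in these comparisons and was not called.

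Of 12 genes of the U1 and Sm particles, 0 differed at 0 ppm, and over all doses 3 (Snrpd1, Snrpe and Snrpf) were lower in each strain, with differences of -0.18 to -0.09, and Snrpn was higher (0.15 in TG and 0.14 in KO), where 16.9% of all genes were called in TG and 13.7% in KO. Of 7 measured inositol phosphate kinases and receptors, 0 differed at 0 ppm. Over all doses Itpka, a paralogue of Itpkc, was lower in TG (-0.39, SE 0.07; limma adjusted p = 4.41e-06) and Itpk1 was higher in KO (0.12, SE 0.04).

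Around Cyp2f2, 20 of the 41 RefSeq genes within 20 places on each side were measured. At 0 ppm 2 of these 20 were called in TG and in KO, Cyp2f2 and Mia. On chromosome 7 as a whole 0.228% of 1313 genes were called in KO minus WT and 0.457% in TG minus WT, beside 0.275% and 0.287% of all genes. Cyp2a12, the nearest measured Cyp2 gene, differed by 0.11 in TG and 0.07 in KO (SE 0.08 each) at a mean level of 3.41.

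Over all doses 6 of the 20 were lower in TG and in KO, where 17.4% and 12.4% of the genes of chromosome 7 and 16.9% and 13.7% of all genes were called in either direction. Beside Cyp2f2, Mia, Rab4b and Cyp2a5 these were Coq8b, a gene of coenzyme Q synthesis 10 places from Cyp2f2 (-0.48 in TG and -0.37 in KO, SE 0.05 each), and Blvrb, a biliverdin reductase 17 places away (-0.39 and -0.37, SE 0.06 each). Ltbp4, a matrix protein that binds latent TGF-beta, was higher in KO (0.32, SE 0.06; limma adjusted p = 0.000181). In TG it differed by 0.16 (limma adjusted p = 0.0774).

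**Figure D4:**
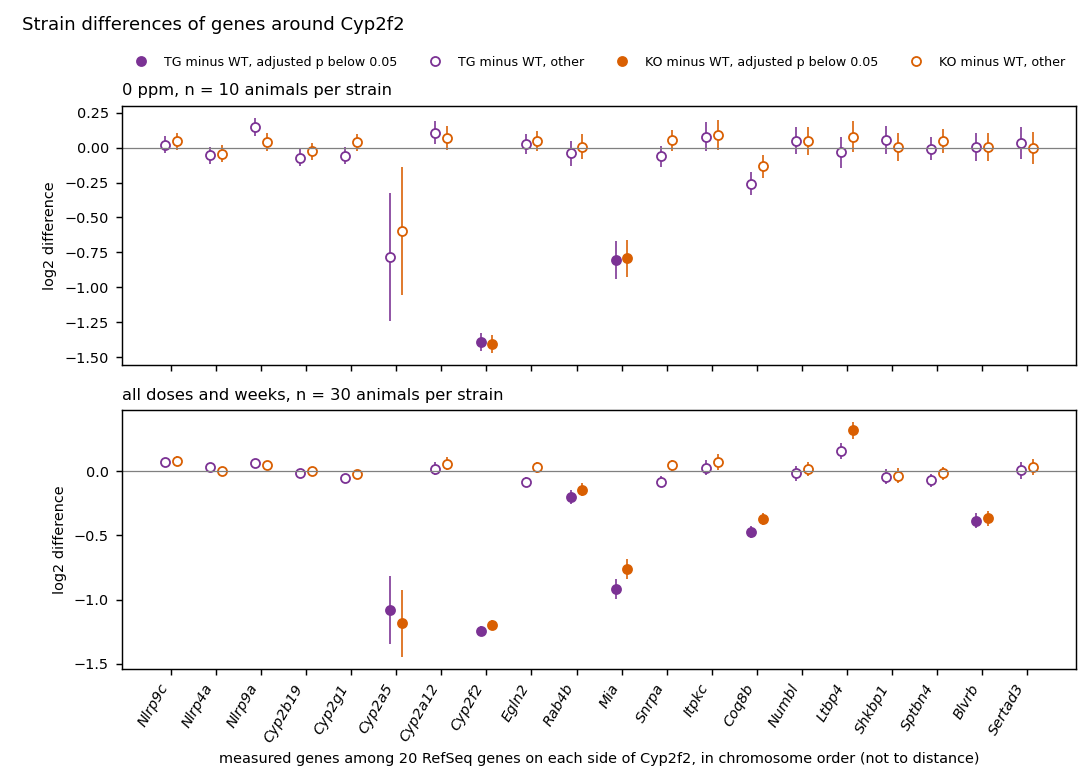
Log2 difference of TG minus WT and KO minus WT (vertical axes, bars are SE) for the 20 measured genes among 20 RefSeq genes on each side of Cyp2f2, in chromosome order without distances; filled points have an adjusted p below 0.05. At 0 ppm only Cyp2f2 and Mia are filled, while Egln2 and Rab4b between them lie near 0, and over all doses Cyp2a5, Rab4b, Coq8b and Blvrb are also lower in both strains.

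With styrene 1 of the 9 genes, Cyp2f2, was called in WT lungs at 1 week. At 40 ppm Cyp2f2 read 12.93, 13.06, 12.82, 12.97 and 12.87, against 13.33, 13.24, 13.29, 13.23 and 13.23 at 0 ppm, and every exposed animal was under every unexposed one. The difference was -0.33 (SE 0.09; limma adjusted p = 0.013), 1.26-fold lower, where 4.67% of all genes were called. At 120 ppm the values were 12.84, 12.84, 13.26, 13.23 and 12.73, with 3 animals under every unexposed one and 2 level with them. The difference was -0.28 (SE 0.09; limma adjusted p = 0.0384), 1.22-fold lower, where 6.79% of genes were called.

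The call at 120 ppm was fragile. It was lost without any single animal of the 0 ppm group, and without animal 1, 2 or 5 of the 120 ppm group, while without animal 3, the array of low weight, the difference was -0.35. With the compared arrays alone in the fit it had a limma adjusted p of 0.362. The call at 40 ppm was lost without animal 3 of the 40 ppm group, where the difference was -0.31. At 4 weeks the changes of Cyp2f2 in WT lungs were -0.18 at 40 ppm (interval -0.35 to 0.00; limma adjusted p = 0.995) and -0.08 at 120 ppm (interval -0.26 to 0.09; limma adjusted p = 0.999). At 40 ppm 4 of 5 animals and at 120 ppm 3 of 5 were under every unexposed one, and 0 of the 9 genes were called by limma, with 1 at an unadjusted p below 0.05 at each dose, where 0.152% and 0.439% of all genes were called.

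In KO and TG lungs no fall of Cyp2f2 with styrene was called. At 1 week its changes were -0.04 at 40 ppm and -0.11 at 120 ppm in TG lungs, and 0.00 and 0.06 in KO lungs (SE 0.09 each). At 4 weeks they were 0.16 and -0.02 in TG and 0.20 and 0.10 in KO lungs. The change in KO minus the change in WT lungs at 1 week was 0.34 at 40 ppm (SE 0.13; limma adjusted p = 0.224) and 0.35 at 120 ppm (SE 0.13; limma adjusted p = 0.134). The fall was therefore not shown to differ between strains after adjustment over all genes. In these 2 comparisons of changes 1.25% and 2.37% of all genes were called and 0 of the 9.

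Without the arrays of low weight the difference at 120 ppm was 0.47 (SE 0.13; limma adjusted p = 0.0151). At 4 weeks and 40 ppm the change in KO minus that in WT lungs was 0.38 (SE 0.13; interval 0.13 to 0.63), and it was not called after adjustment. In TG minus WT the changes at 1 week differed by 0.29 (SE 0.13; limma adjusted p = 0.298) at 40 ppm. Across the 12 comparisons of changes between strains 0 of the 9 genes were called by limma, and between 0 and 2 of the 9 had an unadjusted p below 0.05. Of all genes, 1.53% and 4.59% were called for TG minus WT at 1 week and 40 and 120 ppm, and 0.0117% and 0.0292% at 4 weeks. For KO minus WT at 4 weeks 0.0234% and 0.0175% were called, and for TG minus KO 0% at either dose and week.

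No other gene of the 9 was called with styrene in any strain or week in the fit over all arrays, and Rab4b in WT lungs at 1 week was called without the arrays of low weight. In KO and TG lungs 0 of 9 were called in each of 8 comparisons, where 0.0117% (TG) and 0.0234% (KO) of all genes were called at 4 weeks and 120 ppm, 0.0468% in TG at 1 week and 120 ppm and 0% in the others, and at most 1 of 9 had an unadjusted p below 0.05. The changes of Mia lay between -0.33 and 0.19 over the 12 comparisons. Those of Egln2 lay between -0.15 and 0.13, of Snrpa between -0.12 and 0.06, of Itpkc between -0.23 and 0.18 and of Cyp2b10 between -0.19 and 0.27.

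Cyp2a5 had the widest range of changes among the 9 genes, between -1.25 in KO at 1 week and 40 ppm and 1.81 in TG at 4 weeks and 40 ppm. In that TG group it read 9.26, 8.53, 6.99, 9.13 and 9.98, against 6.81, 7.60, 5.92, 6.48 and 8.04 at 0 ppm, and the groups overlapped only through animal 3. The difference of 1.81 (SE 0.65) had a limma adjusted p of 0.421. In WT lungs at 4 weeks Cyp2a5 differed from 0 ppm by 0.66 at 40 ppm and 1.16 at 120 ppm (SE 0.65 each), with intervals of -0.63 to 1.95 and -0.13 to 2.44.

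**Figure D5:**
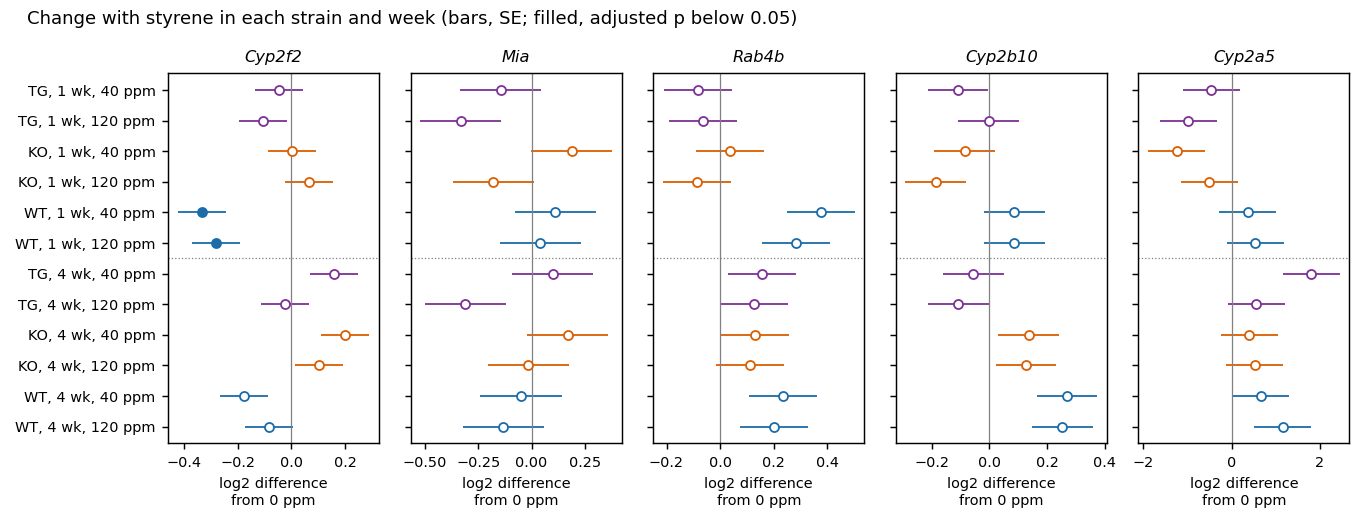
Log2 change from 0 ppm (horizontal axes, bars are SE) of Cyp2f2, Mia, Rab4b, Cyp2b10 and Cyp2a5 at each dose, in TG, KO and WT lungs at 1 week (upper) and 4 weeks (lower); each gene has its own scale, and filled points have an adjusted p below 0.05. Only Cyp2f2 in WT lungs at 1 week is filled, at -0.33 and -0.28.

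Between 1 and 4 weeks in unexposed lungs 0 of 9 genes were called in any strain. In TG lungs 2 had an unadjusted p below 0.05, Mia (-0.40, SE 0.19; limma adjusted p = 0.319) and Rab4b (-0.26, SE 0.13; limma adjusted p = 0.332), and in KO and WT lungs 0 did. All genes were called at 0.304% in TG, 0.538% in KO and 0.638% in WT lungs. Between 120 and 40 ppm in WT lungs 0 of 9 and 0 of all genes were called at either week.

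Across the 18 group means Cyp2f2 and Mia had a Pearson r of 0.86, Cyp2f2 and Cyp2a5 0.71, and Mia and Rab4b 0.74. These points share strain and arrays, so the values are descriptions. Among 10257 genes searched, those most like Cyp2f2 across the group means were Pfn2 (r = 0.98), Ces1f (0.98) and Cd55 (0.94). For Mia they were Tubb4b (0.92), Hp (0.91) and Cenpv (0.91), for Cyp2a5 Trim13 (0.90), Kcnmb2 (0.89) and Wdpcp (0.89), and for Cyp2b10 Syne4 (0.83), Ggt6 (0.80) and Cdhr3 (0.77).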

How the data were processed

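Whole-lung RNA from 90 mice was measured on Affymetrix HT MG-430 PM arrays. The values deposited by the authors are log2 expression, and the submitters' processing notes name RMA (robust multi-array average) and Partek without versions. The table, for which no build or annotation is named, held 45141 probe sets, of which 104 controls were left out, and 28898 carried 1 gene symbol, 551 several and 15588 none, giving 17097 genes. Each gene was represented by its brightest probe set. Array medians were 4.42 to 4.86, and the number of arrays limits the precision. No 2 arrays were identical (highest correlation 0.997). limma 3.58.1 in R 4.3.3 fitted 18 group means, leaving 72 residual degrees of freedom, and p-values were adjusted by Benjamini-Hochberg over all genes within each of 35 comparisons, at a threshold of 0.05. The fit was tested on simulated data. All intervals are 95%. The listed genes and the accompanying gene lists were chosen with earlier results of these data known. The genes named are the listed genes, up to 5 genes of a list past the threshold by size of change, neighbours of Cyp2f2 that passed or border a listed gene, and the 3 genes most alike over group means. Alternatives were array weights, leaving out arrays of low weight, a replicate block, repeated quantile normalization, an intensity trend, the median over probe sets, leaving out dim genes, the compared arrays alone, a poly-A covariate and leaving out each animal. The club cell list as a covariate was added after the data were seen.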

Additional observations from a re-analysis of the deposited data

Results flagged for a closer look

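In groups of 5 animals, 18 of 162 gene and group combinations (11.1%) had 1 animal whose gap to its nearest neighbour, as a share of the group's range, exceeded Dixon's critical value of 0.71. Chance gives about 1 in 20. No explanation was tested.

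Cyp2f2 was 11.63 in TG 1 week 0 ppm animal 2, where the others lay at 11.94 to 12.05. Cyp2a5 was 6.57 in KO 1 week 0 ppm animal 2, against 8.21 to 8.69.

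Mia stood apart in 5 groups. It was 6.61 in TG 1 week 0 ppm animal 5 (others 5.45 to 5.78), 6.65 in KO 1 week 0 ppm animal 3 (others 5.45 to 5.60) and 5.82 in WT 1 week 0 ppm animal 2 (others 6.51 to 6.77). It was 5.04 in TG 4 weeks 40 ppm animal 3 (others 5.53 to 5.66) and 5.10 in KO 4 weeks 120 ppm animal 1 (others 5.46 to 5.60).

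KO 4 weeks 40 ppm animal 1, which had the lowest array weight (0.0897), was high for Rab4b (7.68, others 6.82 to 6.94), Egln2 (9.39, others 8.70 to 8.79), Snrpa (8.92, others 8.05 to 8.23) and Cyp2g1 (2.87, others 2.56 to 2.60). TG 1 week 0 ppm animal 5, with a weight of 0.155, was also high for Egln2 (9.12, others 8.67 to 8.79) and Itpkc (6.84, others 6.37 to 6.45). KO 1 week 0 ppm animal 3, with a weight of 0.211, was also high for Snrpa (8.77, others 8.28 to 8.37).

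Rab4b was 7.52 in KO 1 week 40 ppm animal 2 (others 7.04 to 7.13). The remaining values concern Cyp2g1, which was 3.07 in TG 4 weeks 40 ppm animal 2 (others 2.62 to 2.75), 2.83 in TG 1 week 40 ppm animal 3 (others 2.59 to 2.65) and 2.45 in WT 1 week 40 ppm animal 1 (others 2.70 to 2.76).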

How the results depend on the processing

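The differences of Cyp2f2 and Mia in TG and KO from WT, and those of Cyp2a5 over all doses, kept their direction and stayed called under each of 10 alternatives and in each fit without 1 animal. The difference of Cyp2a5 in TG minus KO at 0 ppm (-0.19) was uncalled and changed sign with array weights (0.074) and with the club cell list as covariate (0.051), and it lay between -0.37 and 0.086 without 1 animal (highest without TG 1 week 0 ppm animal 2). Of the 9 genes, the count called in TG minus WT over all doses was 7 with array weights and 7 without the arrays of low weight, against 4. Egln2 and Cyp2b10 were among the genes added in each. Without the arrays of low weight 4687 of all 17097 genes were called in this comparison, against 2881. In TG minus KO over all doses the count among the 9 genes was 1 with array weights (Egln2), 1 with the club cell list as covariate (Cyp2a5) and 0 to 1 without 1 animal (1 without TG 1 week 0 ppm animal 5). Of all genes, 705 were called there with array weights and 836 without that animal, against 398. In WT lungs at 1 week and 40 ppm the count among the 9 genes was 2, adding Rab4b, with array weights, when arrays of low weight were left out and with a term for poly-A controls, and 0 to 2 without 1 animal (0 without 40 ppm animal 3, 2 without 0 ppm animal 1 or 40 ppm animal 5). With array weights 2446 of all genes were called in this comparison, against 799. At 120 ppm the count among the 9 genes was 0 with the compared arrays alone (Cyp2f2, limma adjusted p = 0.362), 2 under the same 3 alternatives and 0 to 2 without 1 animal. The poly-A covariate called 2967 of all genes there, against 1161. For KO minus WT in the change at 1 week the count among the 9 genes was 1 at 40 ppm with array weights, and at 120 ppm 1 with array weights and without the arrays of low weight, and 0 to 1 without 1 animal (1 without WT 120 ppm animal 3). Of all genes, 497 were called at 40 ppm with array weights, against 214, and 828 at 120 ppm without that animal, against 405. For KO at 4 minus 1 weeks the count among the 9 genes was 4 with the poly-A covariate, against 0. In that fit 4024 of all 17097 genes were called, against 92. The cause was not tested.

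With the replicate block, 2 of the 9 genes were called in WT lungs at 1 week and 40 ppm, against 1, and Cyp2b10 in TG minus WT over all doses (-0.11) was called. The block changed no other named call. Nothing in the labels pairs animals that share a number. Their deviations had a median correlation of 0.07 (range -0.65 to 0.66, 765 pairs), against -0.02 for animals of different numbers, and 41 of 90 samples were closest to their own number among 5. That is a hint from the data that some animals of a number deviate together, and not every pair did. For Cyp2b10 animal 1 or 2 was the lowest of its group in every group except those of KO at 40 ppm. The main fit holds no term for the number, and what animals of a number share was not tested.

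Counts over all genes moved more. KO minus WT at 0 ppm had 47 genes (41 to 143 over the alternatives), TG minus WT 49 (34 to 208) and TG minus KO 23 (7 to 54). Over all doses they had 2343 (1995 to 3719), 2881 (2640 to 4687) and 398 (238 to 705). WT lungs had 799 at 40 ppm (628 to 2446) and 1161 at 120 ppm (36 to 2967) at 1 week, and 26 (12 to 87) and 75 (54 to 209) at 4 weeks. For KO minus WT in the change at 1 week they were 214 (157 to 497) at 40 ppm and 405 (6 to 1447) at 120 ppm, and for TG minus WT 261 (157 to 619) and 784 (23 to 1151). For 4 minus 1 weeks they were 52 in TG (15 to 325), 92 in KO (30 to 4024) and 109 in WT lungs (93 to 606). Low signal limits Cyp2g1.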

Other observations

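Of 6 listed genes of ciliated cells, the other main cell type of the airway lining, 5 were measured and 0 were called between unexposed strains. Over all doses, where 16.9% of all genes were called, TG lungs had lower levels of 2 than WT lungs did, the ciliogenesis factor Foxj1 (-0.51, SE 0.09; limma adjusted p = 9.85e-06) and the ciliary protein gene Tekt1 (-0.33, SE 0.07; limma adjusted p = 0.000192). Foxj1 was also lower in TG than in KO lungs (-0.33, SE 0.09; limma adjusted p = 0.0289), and 0 of the 5 were called in KO minus WT.

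In WT lungs at 1 week and 120 ppm, where none of Egln2, Snrpa, Itpkc and Rab4b was called, 4 of 19 genes of the hypoxia list, 1 of 12 U1 and Sm genes, 2 of 7 inositol phosphate genes and 1 of 11 endosome genes were, beside 6.79% of all genes. In the hypoxia list Epas1, which encodes HIF-2 alpha, was lower (-0.31, SE 0.07; limma adjusted p = 0.00157), as was Egln1 (-0.23, SE 0.07), and Ankrd37 was higher (0.68, SE 0.21; limma adjusted p = 0.0317). The inositol polyphosphate kinase gene Ipmk (-0.36, SE 0.09) and the inositol trisphosphate receptor gene Itpr2 (-0.36, SE 0.11) were lower, as was the endosome gene Rbsn (-0.27, SE 0.08). Snrpd1, a Sm protein gene, was higher (0.31, SE 0.09; limma adjusted p = 0.0243). With only the compared arrays fitted, the count over all genes in this comparison was 36, against 1161.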
